A study of Mus musculus with 9 samples.

Results

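The genes described here are 10 lipid-handling genes of phagocytes, Spp1, Gpnmb, Apoe, Trem2, Lpl, Lgals3, Fabp5, Cd9, Abca1 and Plin2, measured in monocytes sorted from blood and from brain in a mouse model of neuromyelitis optica (NMO). They were taken by symbol from a list chosen with earlier results of these data known, so no count of them is independent evidence. All 10 are listed among the 23238 gene symbols counted, and all 10 were among the 10107 genes with enough reads to be tested. The model is made by injecting NMO-IgG, antibody purified from patients, together with human complement into the striatum of 1 hemisphere of adult female wild-type C57BL/6N mice. Sequencing on day 1 covered 3 groups, monocytes from the blood of non-treated normal mice (Nor_Bl_mono), from the blood of injected mice (NMO_Bl_mono) and from the brain of injected mice (NMO_Br_mono), with 3 libraries per group and 5 mice pooled in each library. The cells were sorted as CD45+, CD11b+, P2ry12-, Ly6C+ and Ly6G-. No monocytes from an uninjected brain or from mice injected with control IgG are among these libraries, and brain cells were freed with enzymes and cleared of myelin while blood cells came from a density gradient. Tissue, injection and preparation therefore cannot be told apart in a comparison of brain with blood.

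Phagocytes that take up dying cells or myelin debris break down large amounts of membrane lipid in their lysosomes. The cholesterol released is passed to carriers and exported, and fatty acids are bound by small carrier proteins, burned or stored as triglyceride in lipid droplets. Microglia and macrophages in damaged or demyelinating brain, and macrophages in fat tissue and arterial plaque, are known to express many of these 10 genes together, and Trem2 is known as a lipid-sensing receptor on these cells.

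The stretches of genome directly before the starts of Spp1 and Gpnmb are shown because these genes had the largest fold differences between brain and blood of the 10. The letters are the 250 bases before the annotated start on the plus strand, from RefSeq on GRCm38.p6, at chr5:104434861-104435110 for Spp1 and chr6:49036268-49036517 for Gpnmb. Capitals mark the only motif found in either of them, GGAAGT, the ETS core bound by PU.1.
Spp1: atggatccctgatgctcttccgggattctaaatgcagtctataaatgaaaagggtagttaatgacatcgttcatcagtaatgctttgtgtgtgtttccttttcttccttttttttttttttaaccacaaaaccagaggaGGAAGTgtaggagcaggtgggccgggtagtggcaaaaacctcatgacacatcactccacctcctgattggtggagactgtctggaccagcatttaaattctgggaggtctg
Gpnmb: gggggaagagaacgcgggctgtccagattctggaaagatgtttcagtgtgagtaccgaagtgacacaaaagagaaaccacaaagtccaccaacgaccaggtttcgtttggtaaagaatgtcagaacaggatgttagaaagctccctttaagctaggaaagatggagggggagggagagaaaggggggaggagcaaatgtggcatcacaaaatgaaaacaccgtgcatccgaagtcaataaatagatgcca
The match in Spp1 begins 111 bases before the start. Both strands of 11 promoter entries of 8 of the genes were searched, and Lpl and Fabp5 have no entry. GGAAGT was found in 1 of these 11 entries and in 19.7% of all 32851 promoters of the same length. The AP-1 motif TGANTCA was found for Trem2 (6.75% of all promoters) and the E-box CACGTG for Abca1 (6.02%). The nuclear receptor repeats AGGTCANAGGTCA and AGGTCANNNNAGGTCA, held by 0.0335% and 0.0152% of all promoters, were found in none of the 11. At such shares no match was likely, and variant repeats were not searched. No match overlapped another, and a match describes letters only.

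Values are given as CPM, counts scaled to 1000000 reads of a library with edgeR's TMM factors. The libraries hold 3ʹ tags, in which a transcript gives about 1 fragment whatever its length, so CPM was not divided by length. Total counts ranged from 7584649 to 10419647 per library, and 3 counts, taken as the floor of a library, correspond to 0.271 to 0.429 CPM. Replicates of a group differed far beyond counting error, with a common dispersion of 2.87. Sparse libraries were NMO_Bl_mono replicate 3 and NMO_Br_mono replicate 2. Where both companion libraries of a group had at least 50 CPM of a gene, the former had 3 counts or fewer for 22.2% of such genes and the latter for 8.28%, against at most 1.94% in any other library. Among the 10 genes this applied to Cd9 in the former and Fabp5 in the latter. The libraries of a group are pools of separate mice, and p-values measure the spread between pools. edgeR's quasi-likelihood test gives no standard error. Those printed are the size of the fitted log2 fold change divided by the square root of the test's F statistic. They are therefore not a measure separate from the p-value. The labels do not say whether the NMO_Bl_mono and NMO_Br_mono pools came from the same mice.

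Brain libraries held more reads of these genes in sum. The summed level of the 10 genes was 3388, 2885 and 3673 CPM in the NMO_Br_mono libraries, against 1608 to 2069 CPM in Nor_Bl_mono and 528 to 1906 CPM in NMO_Bl_mono. Apoe and Lgals3 supplied most of that sum in 8 of the 9 libraries, NMO_Bl_mono replicate 3 being the exception. Without them the sum was 778 to 1546 CPM in NMO_Br_mono, 189 to 288 CPM in Nor_Bl_mono and 178 to 318 CPM in NMO_Bl_mono, and the brain libraries again lay above all 6 blood libraries.

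**Figure D1:**
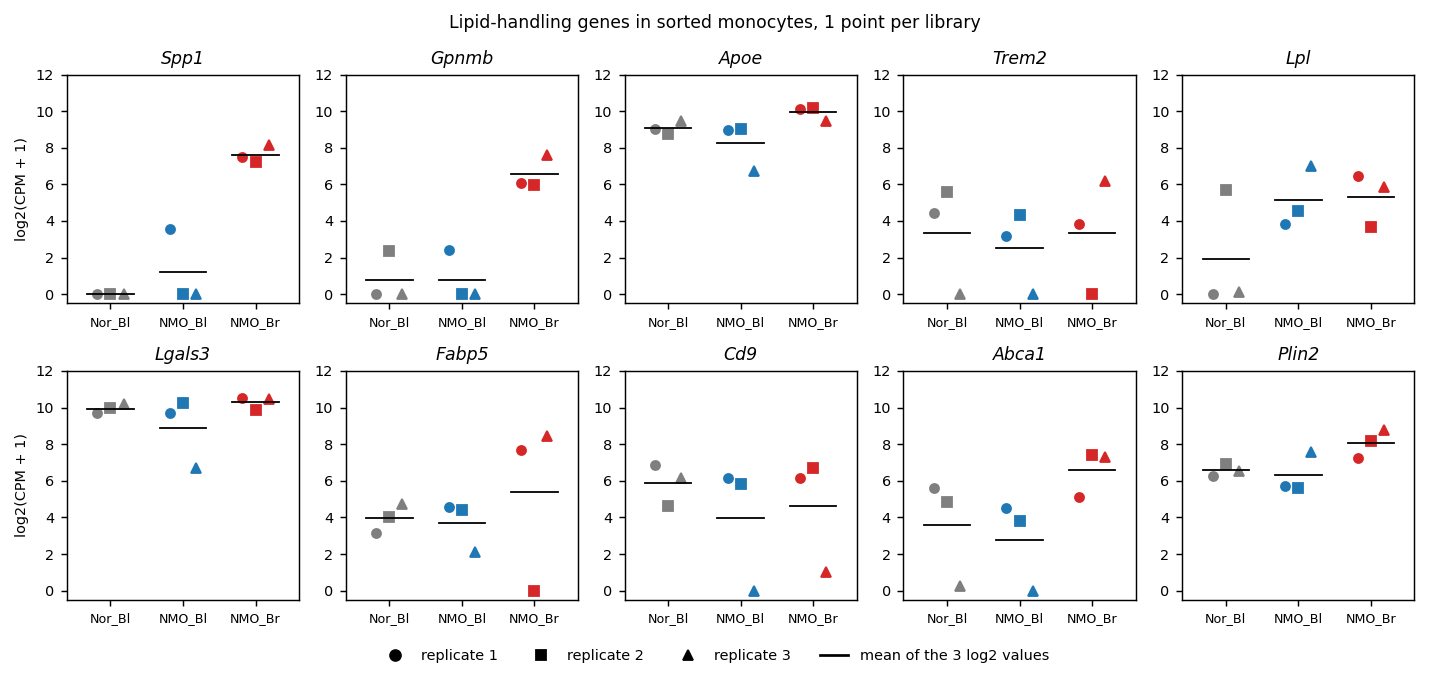
Level of each of the 10 genes as log2(CPM + 1) in each of the 9 libraries, with replicates 1, 2 and 3 as circles, squares and triangles and a line at the mean of the 3 log2 values of a group. The brain points of Spp1, Gpnmb and Apoe lie above all 6 blood points, while those of Trem2, Lpl and Cd9 are spread through the range of the blood points.

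Among the secreted proteins, Spp1 encodes osteopontin, a matrix protein and cytokine made by activated macrophages (chr5:104435118-104441050, plus strand). NMO_Br_mono replicates 1, 2 and 3 held 177, 147 and 284 CPM of Spp1, and NMO_Bl_mono held 10.9, 0 and 0 CPM. All 3 Nor_Bl_mono libraries had 0 reads of it. The 3 brain libraries were alike and far above every blood library, and the only blood reads, 78 counts, came from NMO_Bl_mono replicate 1. Between brain and blood of injected mice the mean Spp1 level differed 56.0-fold, a fitted log2 fold change of 5.81 (standard error 2.07, unadjusted p = 0.0161, adjusted p = 0.802 by edgeR's quasi-likelihood test). Against Nor_Bl_mono, with the floor of 3 counts per library in place of 0, Spp1 was at least 579-fold higher in brain (unadjusted p = 0.000587, adjusted p = 0.132, edgeR). That limit covers counting error only, not the loss of a gene's reads from a library. Without NMO_Bl_mono replicate 1 the adjusted p of Spp1 was 0.0312 between brain and NMO_Bl_mono and 0.00743 between brain and Nor_Bl_mono by edgeR, and without NMO_Bl_mono replicate 2 or replicate 3 it was 0.0339 or 0.0216 between brain and Nor_Bl_mono. Without any 1 of the 8 libraries other than NMO_Bl_mono replicate 1 it was 0.574 to 1 between brain and NMO_Bl_mono. Without any 1 brain or Nor_Bl_mono library it was 0.201 to 0.406 between brain and Nor_Bl_mono.

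Apoe encodes apolipoprotein E, which carries cholesterol and phospholipid out of cells (chr7:19696109-19699188, minus strand). Its level was 1130.3, 1174 and 709.5 CPM in NMO_Br_mono, 519, 423 and 704 CPM in Nor_Bl_mono and 498, 523 and 106 CPM in NMO_Bl_mono. Apoe was thus abundant in every library, all 3 brain values lay above all 6 blood values, and the lowest brain value exceeded the highest blood value only narrowly. Scaled to total counts without TMM factors, NMO_Br_mono replicate 3 held 752 CPM and Nor_Bl_mono replicate 3 held 756 CPM, so Apoe then overlapped. The mean was 1004 ± 256 CPM in brain (SD, n = 3), 549 ± 143 CPM in Nor_Bl_mono and 376 ± 234 CPM in NMO_Bl_mono. Apoe differed by 1.42 (log2, standard error 0.51, unadjusted p = 0.0146, adjusted p = 0.802, edgeR) between brain and NMO_Bl_mono and by 0.87 (standard error 0.50, unadjusted p = 0.105, adjusted p = 0.8) between brain and Nor_Bl_mono.

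Lgals3 encodes galectin-3, a sugar-binding protein recruited to damaged lysosomes and secreted by macrophages (chr14:47367751-47386160, plus strand). Lgals3 reached 1458, 933 and 1417 CPM in NMO_Br_mono, 822, 994 and 1176 CPM in Nor_Bl_mono and 838, 1205 and 103 CPM in NMO_Bl_mono. Lgals3 was high in 8 of 9 libraries and the groups overlapped, with the single low value in the sparse NMO_Bl_mono replicate 3. Fitted values on the log2 scale were 0.83 (standard error 0.59, adjusted p = 1, edgeR) between brain and NMO_Bl_mono and 0.35 between brain and Nor_Bl_mono (standard error 0.58, adjusted p = 1).

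Of the membrane proteins, Gpnmb encodes a glycoprotein of late endosomes and lysosomes that is abundant in lipid-laden macrophages (chr6:49036546-49070929, plus strand). Gpnmb reached 65.4, 62.1 and 193 CPM in NMO_Br_mono. In blood it was above 0 in 1 library of each group, at 4.20 CPM in Nor_Bl_mono replicate 2 and 4.32 CPM in NMO_Bl_mono replicate 1. Gpnmb therefore separated brain from blood without overlap, as Spp1 did, and both were highest in NMO_Br_mono replicate 3. The mean differed 74.3-fold between brain and NMO_Bl_mono (log2 fold change 6.21, standard error 2.71, unadjusted p = 0.0378, adjusted p = 0.802, edgeR) and 76.3-fold between brain and Nor_Bl_mono (log2 fold change 6.23, standard error 2.71, unadjusted p = 0.0373, adjusted p = 0.708).

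Trem2 encodes a surface receptor that binds lipids and apolipoproteins and signals through Tyrobp (chr17:48346401-48354147, plus strand). Trem2 stood at 13.3, 0 and 71.0 CPM in NMO_Br_mono, 21.0, 46.1 and 0 CPM in Nor_Bl_mono and 8.22, 18.9 and 0 CPM in NMO_Bl_mono. Each group had 1 library without a Trem2 read, and the groups overlapped throughout. Brain exceeded blood by a fitted 1.63 on the log2 scale (standard error 2.78, adjusted p = 1, edgeR) between brain and NMO_Bl_mono and 0.33 (standard error 2.71, adjusted p = 1) between brain and Nor_Bl_mono, and without NMO_Br_mono replicate 3 these became -0.44 and -1.74.

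Cd9 encodes a tetraspanin, a membrane-organizing protein that marks lipid-associated macrophages in several tissues (chr6:125460266-125494791, minus strand). Cd9 was at 68.9, 102 and 0.989 CPM in NMO_Br_mono, 114, 23.3 and 69.8 CPM in Nor_Bl_mono and 70.5, 55.4 and 0 CPM in NMO_Bl_mono. A brain library and an NMO_Bl_mono library, both replicate 3, were almost devoid of it, and the remaining values of the 3 groups were intermixed. Fitted differences (log2) were 0.45 (standard error 1.74, adjusted p = 1, edgeR) between brain and NMO_Bl_mono and -0.27 (standard error 1.74, adjusted p = 1) between brain and Nor_Bl_mono. Its direction turned with the library left out, from -0.25 to 1.05 in the first comparison and from -0.97 to 0.32 in the second.

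Among enzymes and carriers of fatty acids, Lpl encodes lipoprotein lipase, which releases fatty acids from circulating triglyceride (chr8:68880491-68907448, plus strand). Brain libraries held 86.3, 11.5 and 57.3 CPM of Lpl, and NMO_Bl_mono held 13.2, 22.1 and 128 CPM. In Nor_Bl_mono the values were 0, 49.8 and 0.102 CPM. The highest Lpl value of all came from the sparse NMO_Bl_mono replicate 3, and brain and blood overlapped. Lpl differed on the log2 scale by -0.08 (standard error 1.96, adjusted p = 1, edgeR) between brain and NMO_Bl_mono and 1.63 (standard error 2.01, adjusted p = 1) between brain and Nor_Bl_mono. Without NMO_Bl_mono replicate 3 the former became 1.56.

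Fabp5 encodes a cytosolic fatty acid binding protein (chr3:10012548-10016607, plus strand). Its level was 205, 0 and 342 CPM in NMO_Br_mono, 7.72, 15.3 and 25.8 CPM in Nor_Bl_mono and 22.6, 19.9 and 3.25 CPM in NMO_Bl_mono. Both brain libraries with Fabp5 reads lay far above every blood library, and NMO_Br_mono replicate 2, a sparse library, had none. Mean levels of 183 ± 172 CPM in brain and 15.2 ± 10.5 CPM in NMO_Bl_mono (SD, n = 3) gave a log2 fold change of 3.58. Its standard error was 1.75, with an unadjusted p of 0.0602 and an adjusted p of 0.802 by edgeR, and against Nor_Bl_mono the log2 fold change was 3.48 (standard error 1.74, unadjusted p = 0.0656, adjusted p = 0.708). With both sparse libraries left out, an alternative chosen after seeing the data, the adjusted p of Fabp5 by edgeR was 0.0557 between brain and NMO_Bl_mono and 0.0137 between brain and Nor_Bl_mono. Reads aligned to several places were counted, and a processed pseudogene, Fabp5l2, is annotated, so a part of these reads may come from a near-identical copy.

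Abca1 and Plin2 stand for the 2 ways out for lipid, export and storage. Abca1 encodes the transporter that loads cholesterol and phospholipid onto apolipoproteins (chr4:53030787-53159895, minus strand). Its values were 33.3, 169.7 and 154 CPM in NMO_Br_mono, 48.2, 27.3 and 0.203 CPM in Nor_Bl_mono and 22.1, 13.2 and 0 CPM in NMO_Bl_mono. Every brain value lay above every NMO_Bl_mono value, but NMO_Br_mono replicate 1 was below the highest Nor_Bl_mono library. Abca1 differed on the log2 scale by 3.33 (standard error 1.91, unadjusted p = 0.103, adjusted p = 0.86, edgeR) between brain and NMO_Bl_mono and 2.24 (standard error 1.82, unadjusted p = 0.241, adjusted p = 1) between brain and Nor_Bl_mono.

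Plin2 encodes perilipin 2, the coat protein of lipid droplets (chr4:86648386-86670060, minus strand). Plin2 was at 151, 285 and 443 CPM in NMO_Br_mono, 76.4, 121 and 92.8 CPM in Nor_Bl_mono and 51.3, 48.3 and 187 CPM in NMO_Bl_mono. All brain values lay above all Nor_Bl_mono values, while the sparse NMO_Bl_mono replicate 3 exceeded NMO_Br_mono replicate 1. The mean differed 3.07-fold between brain and NMO_Bl_mono (log2 fold change 1.62, standard error 0.69, unadjusted p = 0.0345, adjusted p = 0.802, edgeR) and 3.03-fold between brain and Nor_Bl_mono (log2 fold change 1.60, standard error 0.69, unadjusted p = 0.0366, adjusted p = 0.708).

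**Figure D2:**
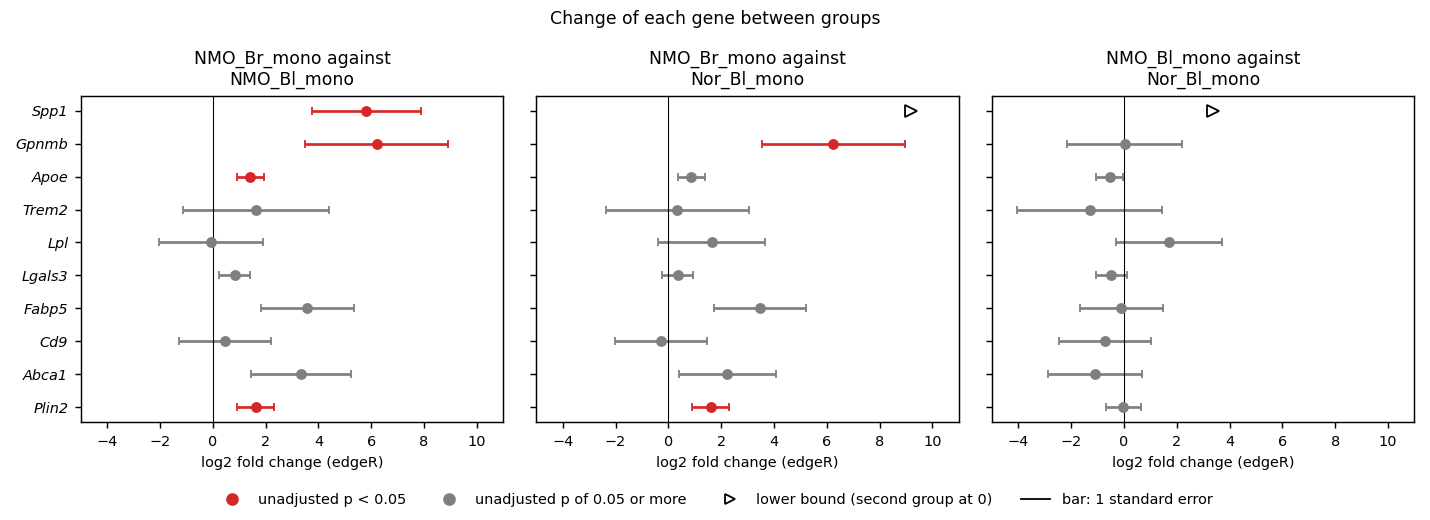
Fitted log2 fold change of each gene in 3 comparisons of groups, with bars of 1 standard error, red where the unadjusted p is under 0.05 and grey otherwise, and open arrowheads for lower bounds where the second group had 0 reads. Spp1 and Gpnmb stand farthest from 0 between brain and blood, and Trem2, Lpl and Cd9 have bars that cross 0 in all 3 comparisons. The standard errors were back-calculated from the F statistic of edgeR's test.

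The comparison of NMO_Br_mono with NMO_Bl_mono asks how monocytes in the injected brain differ from those left in the blood of injected mice. None of the 10 genes passed an adjusted p of 0.05, where 0.0198% of all genes tested were called higher and 0.228% lower (edgeR). At the unadjusted threshold used by the study, an unadjusted p under 0.05 together with a 1.2-fold change, 4 of 10 were higher (Spp1, Gpnmb, Apoe and Plin2) and 0 lower, against 1.48% and 3.84% of all genes tested. With Abca1 in place of Plin2, 4 of 10 had every brain library above every NMO_Bl_mono library, against 6.3% of all genes, and 0 of 10 had every brain library below (6.05% of all genes). The fitted change was above 0 for 9 of 10 genes (51.4% of all genes), Lpl being the exception, with a median of 1.63 over the 10 and 0.05 over all genes tested. Without NMO_Br_mono replicate 3 the unadjusted count was 2 (Spp1 and Apoe), against 1.04% of all genes. Without both sparse libraries it was 5 (Spp1, Gpnmb, Apoe, Plin2 and Fabp5), against 2.04%. In that setting 8 of 10 genes did not overlap between the groups, against 16.1% of all genes with so few libraries.

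The same brain libraries enter the comparison of NMO_Br_mono with Nor_Bl_mono, groups that differ by tissue and by injection. No gene of the 10 passed an adjusted p of 0.05 by edgeR (0.0297% of all genes tested called higher and 0.218% lower), and 3 of 10 passed the unadjusted threshold, namely Spp1, Gpnmb and Plin2, all higher (1.75% of all genes were called higher and 4.07% lower). Spp1, Gpnmb, Apoe and Plin2 did not overlap between the groups, 4 of 10 higher and 0 lower, against 6.07% and 9.37% of all genes. Apoe did overlap when scaled to total counts without TMM factors. The fitted change was above 0 for 9 of 10 genes and below it for Cd9 (46.3% of all genes were above 0), with a median of 1.62 over the 10 and -0.12 over all genes tested. The unadjusted count was 1 (Spp1) without NMO_Br_mono replicate 3, without Nor_Bl_mono replicate 1 or without Nor_Bl_mono replicate 3, against 1.28%, 1.63% and 1.14% of all genes. It was 5 without both sparse libraries, where the share of all genes was 3.98%.

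In blood, the libraries of injected and normal mice overlapped for all 10 genes. Between NMO_Bl_mono and Nor_Bl_mono no gene of the 10, and none of the 10107 tested, passed an adjusted p of 0.05 by edgeR, and 47 genes were higher and 25 lower at the unadjusted threshold. Across all genes DESeq2 called 48 higher and 21 lower after adjustment, with none of the 10 among them and no adjusted p for Spp1. Spp1 alone of the 10 passed the unadjusted threshold (unadjusted p = 0.009, adjusted p = 1, edgeR), against 0.465% of all genes called higher, and 0 of 10 were lower (0.247%). By the mean Spp1 was at least 10.4-fold higher, a limit that covers counting error only. That value rested on 78 counts in NMO_Bl_mono replicate 1, and without this library no Spp1 read remained in blood. None of the 10 separated the groups without overlap, where 2.34% of all genes did so in the higher and 4.45% in the lower direction. The median log2 fold change of the 10 was -0.29, against -0.16 over all genes, with 3 of 10 above 0 (42.4% of all genes). Standard errors of the 9 genes with reads in both groups, back-calculated from the test, ran from 0.50 for Apoe to 2.75 for Trem2. Differences may have been missed, and the size that could have been detected was not tested.

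Setting the brain libraries against the mean of both blood groups used all 9 libraries. Spp1 was the one gene of the 10 with an adjusted p under 0.05 (0.0469, edgeR, mean 112-fold higher in brain), where 0.139% of all genes tested were called higher and 0.297% lower. The call did not hold without any single NMO_Br_mono library (adjusted p 0.0907 to 0.148), without Nor_Bl_mono replicate 3 (0.126) or without the reads of the ribosomal entry Rn45s (0.0545), and it held under the other libraries left out (0.00174 to 0.0497). Plin2 was called as well without NMO_Bl_mono replicate 3 (0.0401), and Fabp5 without both sparse libraries (0.00718). DESeq2 gave no adjusted p for Spp1 and called Gpnmb (adjusted p under 0.05). Without a filter, the adjusted p of Gpnmb was 0.016 by edgeR. At the unadjusted threshold 5 of 10 were higher, Spp1, Gpnmb, Plin2, Apoe and Fabp5, against 2.62% of all genes. Spp1, Gpnmb and Apoe lay above all 6 blood libraries in all 3 brain libraries, 3 of 10 against 3.57%, and none lay below all of them (3.13%). For Apoe this did not hold when scaled to total counts without TMM factors. All 10 had a fitted change above 0, against 50.2% of all genes, but those of Cd9 (0.09) and Lpl (0.78) were smaller than their standard errors (1.50 and 1.66). Without NMO_Br_mono replicate 3 the unadjusted count was 2 (Spp1 and Apoe), against 1.92% of all genes.

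**Figure D3:**
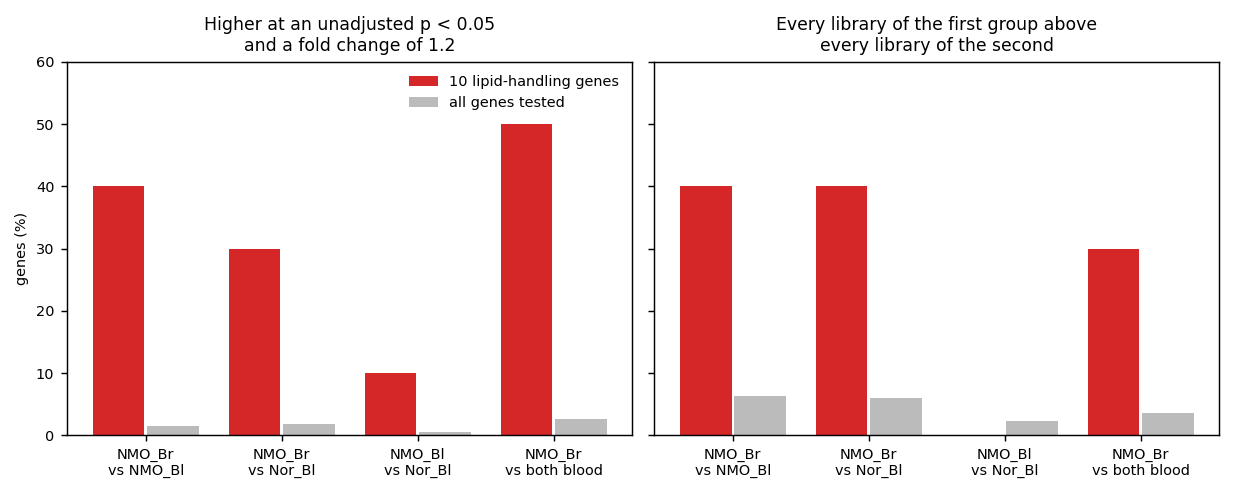
Percent of the 10 lipid-handling genes (red) and of all 10107 genes tested (grey) that were higher in the first group of each comparison, at the unadjusted threshold (left) and by absence of overlap between libraries (right). Red bars reach 30% to 50% in the 3 comparisons of brain with blood, where grey bars stay at or below 6.3%, and 10% and 0% between the blood groups.

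Markers of monocytes were high in sum in every library, but single markers differed in both directions. Against NMO_Bl_mono, 5 of the 10 were higher in brain without overlap and 2 lower (6.3% and 6.05% of all genes). Against Nor_Bl_mono, 4 were higher and 3 lower (6.07% and 9.37%). The summed level of 10 monocyte markers was 4221 to 8051 CPM in NMO_Br_mono, 5169 to 6737 CPM in Nor_Bl_mono and 3890 to 6924 CPM in NMO_Bl_mono. All 10 were above the floor in at least 1 library of each group. Markers of other cells that carry several of the lipid genes were also measured in brain. The 11 microglia markers summed to 827 to 994 CPM in NMO_Br_mono, against 142 to 394 CPM in Nor_Bl_mono and 0.0904 to 242 CPM in NMO_Bl_mono. In at least 1 library of the group, 11 of 11 were above the floor in NMO_Br_mono and 5 of 11 in each blood group. Tmem119, which microglia express and monocytes lack, was at 77.9, 0 and 20.9 CPM in the brain libraries and at 0 in all 6 blood libraries. Sall1 had reads in brain and also in NMO_Bl_mono, and none in Nor_Bl_mono. P2ry12, on which the sort excluded microglia, was at 23.6, 69.3 and 9.89 CPM in brain and between 0 and 43.2 CPM in blood. Cx3cr1, also present in monocytes, made up 295 to 541 CPM of the brain sums.

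The microglia sums of NMO_Br_mono replicates 1, 2 and 3 were 994, 994 and 827 CPM. Spp1, Gpnmb, Trem2, Fabp5 and Plin2 were highest in replicate 3, Apoe, Cd9 and Abca1 in replicate 2, and Lgals3 and Lpl in replicate 1. Markers of border macrophages, which line vessels and meninges, summed to 142 to 230 CPM in brain and 0 to 41.3 CPM in blood. In at least 1 library of the group, 6 of 7 were above the floor in brain, 3 in Nor_Bl_mono and 4 in NMO_Bl_mono. Mrc1 and Cd163 had reads in all 3 groups. Lyve1 had reads in Nor_Bl_mono and none in NMO_Bl_mono, and among the brain libraries it was read only in replicate 2. Neutrophil markers summed to 439 to 1741 CPM in brain and 82.6 to 294 CPM in blood, although the sort excluded Ly6G. Endothelium markers summed to 114 to 742 CPM in brain and 5.59 to 115 CPM in blood, and were highest in NMO_Br_mono replicate 3. Astrocyte markers summed to at most 39.7 CPM in any library, and Aqp4 was at 0 in all 9 libraries. Gfap had reads in brain and none in blood, while Slc1a3 had reads in both blood groups and none in brain. Markers of NK cells and platelets moved the other way, with 21.1 to 288 and 0 to 39.4 CPM in brain against 1606 to 2412 and 184 to 1473 CPM in blood. B and T cell markers summed to at most 101 CPM and oligodendrocyte markers to at most 115 CPM in any library. The part of these cells in the levels of the lipid genes was not tested. In pooled cells, a different number of cells of a type and a different amount of RNA per cell cannot be told apart.

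**Figure D4:**
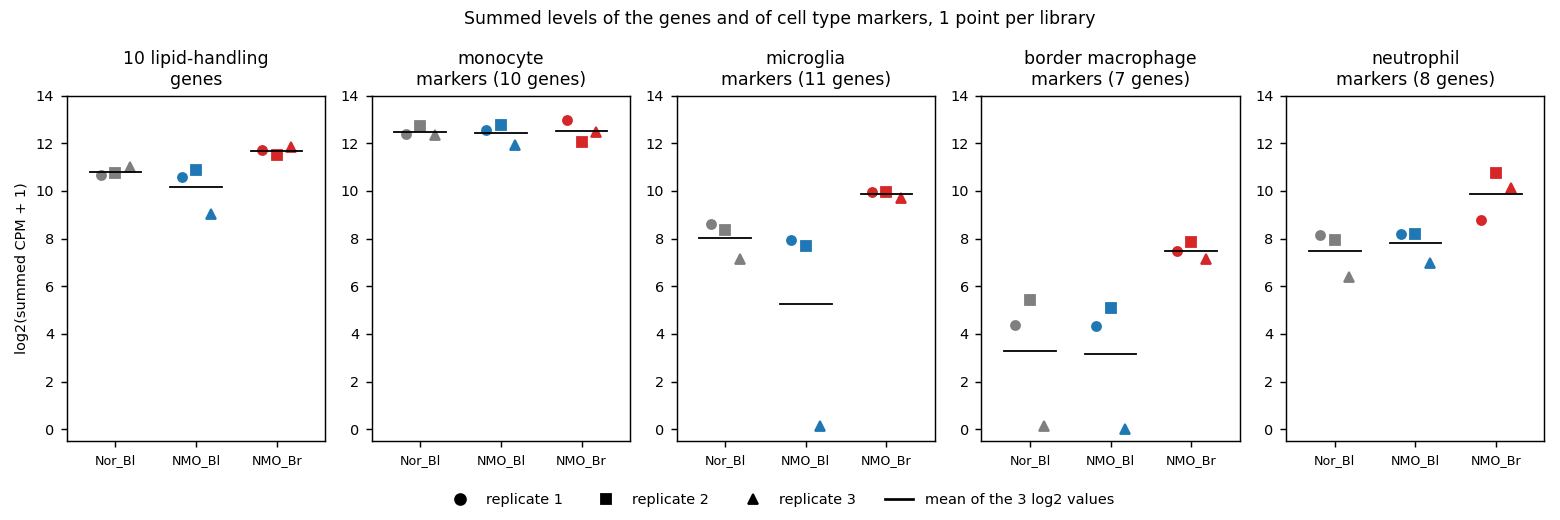
Summed CPM per library, as log2(sum + 1), of the 10 lipid-handling genes and of the monocyte, microglia, border macrophage and neutrophil markers, with symbols for replicates and a line at the mean of a group. The monocyte marker sums overlap between groups, and the microglia, border macrophage and neutrophil sums are higher in the 3 brain libraries than in all 6 blood libraries, as is the sum of the 10 genes.

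A wider set of 76 genes, in 6 lists of lipid uptake, cholesterol handling, triglyceride storage, fatty acid use, sterol synthesis and the phagolysosome, holds the partners of the 10 genes, and 69 of them were tested. Between NMO_Br_mono and NMO_Bl_mono none passed an adjusted p of 0.05 by edgeR, 6 were higher and 1 lower at the unadjusted threshold (1.48% and 3.84% of all genes), and 51 of 69 had a fitted change above 0, with a median of 0.74. Against both blood groups 1 of 69 passed after adjustment, 11 were higher and 1 lower at the unadjusted threshold (2.62% and 4.26% of all genes), and the median was 0.68. Between the blood groups 0 were higher and 1 lower at that threshold, with a median of -0.24.

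The list of Trem2 signalling and the phagolysosome, the compartment that digests what was engulfed, was the largest, with 16 genes tested. It supplied 5 of the 11 genes higher against both blood groups at the unadjusted threshold, all 5 lysosomal. The fitted change was above 0 for 12 of 16, with a median of 0.70. Those 5 genes also lay above all blood libraries, where 3.57% of all genes did so. Ctsd, which encodes the lysosomal protease cathepsin D, was at 1329, 1101 and 1050.3 CPM in NMO_Br_mono, and averaged 301 ± 105 CPM in NMO_Bl_mono and 328 ± 45.2 CPM in Nor_Bl_mono (SD, n = 3). Its brain values lay without overlap above blood, the log2 fold change against both blood groups was 1.89 (standard error 0.30, adjusted p = 0.0139, edgeR), and against NMO_Bl_mono alone it was 1.95 (standard error 0.38, adjusted p = 0.0525). Cd63, a lysosomal tetraspanin, was at 102, 126 and 147 CPM in brain and at most 65.3 CPM in blood. Cd68, a lysosomal glycoprotein of macrophages, averaged 381 ± 33.4 CPM in brain and 97.5 ± 77.8 CPM in NMO_Bl_mono, and Ctsb, encoding cathepsin B, averaged 1182 ± 336 and 261 ± 230 CPM. Ctsl, encoding cathepsin L, ranged from 79.8 to 285 CPM in brain. Cd63, Cd68, Ctsb and Ctsl each lay above all blood libraries in all 3 brain libraries, with adjusted p of 0.442 to 0.618 against both blood groups by edgeR.

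For uptake, Mertk, a receptor for apoptotic cells, was at 9.0, 15.3 and 18.1 CPM in brain and at or under 0.102 CPM in every blood library (adjusted p = 0.435 against both blood groups, edgeR). Lrp1, a large endocytic receptor that binds apolipoprotein E, averaged 411 ± 100 CPM in brain, 224 ± 24.8 CPM in NMO_Bl_mono and 178 ± 45.7 CPM in Nor_Bl_mono, without overlap. Msr1, scavenger receptor A, averaged 258 ± 84.4 CPM in brain and overlapped with NMO_Bl_mono. For cholesterol, Npc1 and Npc2, which carry it out of lysosomes, and Nr1h3, the sterol-sensing nuclear receptor LXR alpha, passed the unadjusted threshold in at least 1 of both comparisons. Npc1 averaged 175 ± 61.2 CPM in brain, 44.3 ± 34.9 CPM in NMO_Bl_mono and 70.4 ± 33.8 CPM in Nor_Bl_mono. It passed only against both blood groups (unadjusted p = 0.0471, adjusted p = 0.618, edgeR). There it overlapped, with 106 CPM in NMO_Br_mono replicate 3 and 109 CPM in Nor_Bl_mono replicate 3. Nr1h3 was at 23.4, 0 and 123 CPM in brain and above 0 in 1 blood library. Npc2 did not separate brain from Nor_Bl_mono, at 952 ± 199 and 997 ± 294 CPM. Of triglyceride enzymes, Mgll, a monoglyceride lipase, was at 30.4, 0 and 45.2 CPM in brain and at most 3.90 CPM in blood. Lpin1, a phosphatidate phosphatase of triglyceride synthesis, was the gene lower in brain, at 0, 26.5 and 8.41 CPM against 61.8 to 169 CPM in the 6 blood libraries (log2 fold change -3.14, standard error 1.36, unadjusted p = 0.0365, adjusted p = 0.618, edgeR). No gene of the fatty acid list (13 tested) or of sterol synthesis (10 tested) passed the unadjusted threshold between any of the groups.

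**Figure D5:**
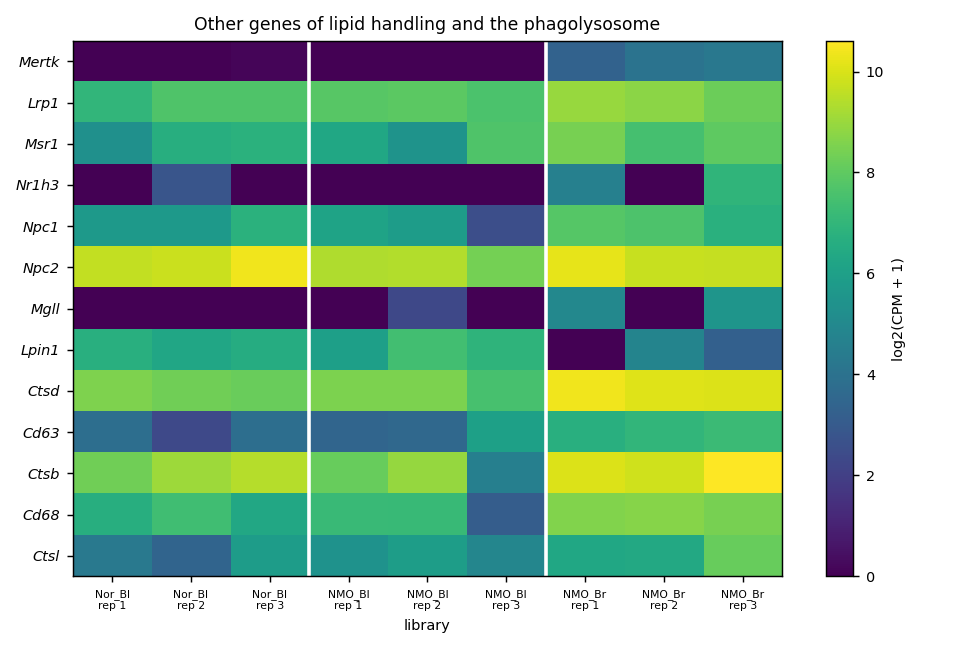
Levels of the 13 named genes of the wider lists in the 9 libraries, as log2(CPM + 1) on a colour scale from dark (0) to yellow, with white lines between the groups. Ctsd, Ctsb, Cd68 and Cd63 are brighter in all 3 brain libraries than in blood, Lpin1 is darker, and Nr1h3 and Mgll are at 0 in NMO_Br_mono replicate 2.

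The genes whose pattern over the 9 libraries was most like each of the 10 were found by Pearson's r of log2(CPM + 1) among the 4090 other genes (4091 for Trem2) with at least 50 CPM in their highest group. Such a coefficient mixes differences between groups with those inside groups and describes these libraries only. Spp1 and Gpnmb followed each other, with r = 0.960 over 9 libraries and 0.722 once group means were removed. Both had Ptprb, which encodes a phosphatase of endothelium, as the most similar gene (r = 0.989 with Spp1 and 0.969 with Gpnmb), followed for Spp1 by Hspb1 (0.984) and Mgl2 (0.977). Apoe was most like Npc1 (0.993), Psmc4 (0.985) and Tmem106a (0.981), and Lgals3 was most like B4galt5 (0.995), Tmem176b (0.991) and Uggt1 (0.991). Fabp5 was most like E430025E21Rik (0.927), Plin3 (0.919) and Cox6c (0.912), where Plin3 encodes another droplet coat protein. Abca1 was most like Parp1 (0.978), Trem2 most like Mtus1 (0.978), Cd9 most like Tifa (0.989), Plin2 most like Tsr1 (0.938) and Lpl most like Chmp5 (0.877). Of the 10 genes, only Spp1 appeared among the 3 genes most like another of the 10, Gpnmb.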

How the data were processed

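Monocyte RNA was measured in 9 QuantSeq 3ʹ libraries, 3 per group, with 5 mice pooled per library. Single-end reads had been aligned by the authors with Bowtie2. Alignments, whether to 1 or to several places, were then counted by Bedtools, and the authors deposited these read counts by gene symbol. The build is mm10 per the submitters' processing notes, and tool versions and the use of strand are not given in the sources used here. The groups follow the sample labels. No library was a copy of another.

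From these counts, the entry with the most reads was kept for each of 35 repeated symbols (23282 entries, 23238 symbols). Total counts per library were 7584649 to 10419647, and limits of 3 counts cover counting error only. Genes passing filterByExpr (10107) were tested in R 4.3.3 with edgeR 4.0.16 (glmQLFit, glmQLFTest, TMM factors, all 9 libraries in 1 fit) and Benjamini-Hochberg adjustment over all of them. Standard errors were back-calculated as the size of the log2 fold change divided by the square root of the F statistic. Calls needed an adjusted p under 0.05 or, at the unadjusted threshold of the study, an unadjusted p under 0.05 together with a 1.2-fold change. Comparisons share libraries. The test was tried on simulated data.

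The 10 genes and all lists were chosen with earlier results of these data known, and Spp1 is named by the study for these libraries, so no count is independent evidence. Named were all 10 genes, up to 6 genes per wider list with an unadjusted p under 0.05 between brain and NMO_Bl_mono or both blood groups, and up to 3 genes most like each of the 10. Also named were the first 3 markers of the microglia, border macrophage and astrocyte lists, with Cx3cr1 added after its values were seen. Gene positions are from GENCODE on GRCm38, the assembly of mm10, and promoters from RefSeq. Alternatives were RLE factors, library sizes alone, other filters, DESeq2 1.42.0, limma-voom (limma 3.58.1), the replicate number as a block, no Rn45s, summed repeated symbols, only the groups compared, and each library left out.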

Additional observations from a re-analysis of the deposited data

How the results depend on the processing

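The directions of Spp1, Gpnmb, Apoe, Fabp5, Abca1, Lgals3 and Plin2 between brain and either blood group held under every alternative that gave a value, while those of Trem2 and Cd9 did not, and Lpl turned against NMO_Bl_mono but not against Nor_Bl_mono. The cause of these changes was not tested. At 3 counts or fewer a level is not separated from 0, as in at least 1 blood library for Spp1, Gpnmb, Trem2, Cd9, Lpl and Abca1. RLE factors and library sizes alone shifted the median log2 fold change of all genes by less than 0.1.

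With 1 library left out at a time, the number of the 10 genes called higher after adjustment ranged from 0 to 1 between NMO_Br_mono and NMO_Bl_mono (Spp1 without NMO_Bl_mono replicate 1, adjusted p = 0.0312, edgeR), from 0 to 1 between NMO_Br_mono and Nor_Bl_mono (Spp1 without any 1 NMO_Bl_mono library) and from 0 to 2 against both blood groups (Spp1 and Plin2 without NMO_Bl_mono replicate 3). Over all genes, those called higher and lower ranged from 0 to 5 and from 14 to 33 between NMO_Br_mono and NMO_Bl_mono, from 1 to 27 and from 10 to 35 between NMO_Br_mono and Nor_Bl_mono, and from 6 to 43 and from 15 to 47 against both blood groups. Fitted log2 fold changes that turned ranged, between NMO_Br_mono and NMO_Bl_mono, from -0.25 to 1.05 for Cd9, from -0.66 to 1.56 for Lpl and from -0.44 to 2.79 for Trem2. Between NMO_Br_mono and Nor_Bl_mono they ranged from -0.97 to 0.32 for Cd9 and from -1.74 to 1.41 for Trem2, and against both blood groups from -0.61 to 0.68 for Cd9 and from -1.09 to 1.58 for Trem2. Between the blood groups they ranged from -0.49 to 0.40 for Fabp5, from -6.76 to 6.74 for Gpnmb, from -1.08 to 0.037 for Lgals3 and from -0.96 to 0.29 for Plin2.

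In the following, counts of all genes called after adjustment are given as higher and lower, for NMO_Br_mono against NMO_Bl_mono, against Nor_Bl_mono and against both blood groups in turn, where they moved from 2 and 23, 3 and 22, and 14 and 30. DESeq2 called 77 and 259, 118 and 248, and 153 and 342, and 48 and 21 between the blood groups. Without a filter the counts were 39 and 71, 43 and 72, and 95 and 86, and 1 and 1 between the blood groups, with 1, 1 and 2 of the 10 genes called higher. Limma-voom called 44 and 7, 27 and 6, and 101 higher, with 1 of the 10 against Nor_Bl_mono and 3 (Spp1, Gpnmb and Apoe) against both blood groups. Without both sparse libraries, an alternative chosen after seeing the data, the counts were 8 and 53, 34 and 73, and 47 and 81, with Spp1 and Fabp5 called in the last 2. Fits of only the groups compared gave 1 and 6, then 15 and 8, with 1 of the 10 (Spp1) against Nor_Bl_mono. RLE factors gave 5 and 21 against Nor_Bl_mono and 27 and 30 against both. Library sizes alone gave 4 higher against NMO_Bl_mono, 8 and 28 against Nor_Bl_mono with 1 of the 10, and 27 and 38 against both. Without Rn45s 0 of the 10 were called against both.

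The log2 fold changes that turned under other alternatives were, between NMO_Br_mono and NMO_Bl_mono, Cd9 (-0.84 without both sparse libraries, -2.25 by limma-voom) and Lpl (2.04 and 1.69). Against both blood groups Cd9 became -0.90 and -2.16, and by limma-voom Trem2 became -0.12 against Nor_Bl_mono. Between the blood groups limma-voom turned Apoe (0.033), Cd9 (0.18), Fabp5 (0.78) and Lgals3 (0.045), leaving out both sparse libraries turned Fabp5 (0.38) and Lgals3 (0.037), library sizes alone turned Gpnmb (-0.18) and Plin2 (0.39), and RLE factors and DESeq2 turned Plin2 (0.14 and 0.14).

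Deviations of libraries with the same replicate number correlated between -0.01 and 0.12, and those with different numbers between -0.096 and 0.030. Such values do not settle whether libraries with the same number share mice or a batch, which was not tested. With the number as a replicate block, the median log2 fold change of the 10 genes was 3.44 between NMO_Br_mono and Nor_Bl_mono and 2.94 against both blood groups, 4 genes of all were higher against NMO_Bl_mono and 5 against Nor_Bl_mono, and Spp1 kept an adjusted p under 0.05 against both (0.0334, edgeR). Under the block Cd9 became -1.11 against both blood groups, Lpl 0.72 against NMO_Bl_mono, and Fabp5 0.12 and Gpnmb -0.10 between the blood groups.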
